A study of Mus musculus with 16 samples.

Results

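Tight junctions of the reticular lamina, the apical surface of the organ of Corti, were described through 9 genes, chosen by name: the claudin genes *Cldn6*, *Cldn9* and *Cldn14*, the MARVEL domain genes *Marveld2*, *Marveld3* and *Ocln*, the angulin genes *Ildr1* and *Lsr*, and the scaffold gene *Tjp1*. All 9 were found among the 49585 genes of the table, of which 20986 were above 0 in at least 1 library. The table gives RNA-seq values in RPKM, read counts divided by transcript length and by the total of mapped reads, so that levels can be compared between genes. The data comprised 16 libraries from the cochleae of CBA mice (CBA/J in the methods of the study), with 4 libraries in each of 4 labelled groups: inner hair cells (IHCs) at 9 months (9m IHC) and 26 months (26m IHC), and outer hair cells (OHCs) at 9 months (9m OHC) and 26 months (26m OHC). The mice carried no engineered allele and received no treatment according to the labels. About 1000 cells of a type were picked one by one with glass pipettes on the basis of their shape, with cells of several mice pooled, so that a library stands for a pool and not for 1 animal. The study asked how gene expression in each HC type differs between the ages.

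The HCs and the supporting cells around them form one sealed epithelium. Its tight junctions separate the potassium-rich endolymph above the hair bundles from the perilymph that bathes the cell bodies, and this separation is needed for hearing. Claudins are membrane proteins that form the paracellular strands and decide which ions can pass. Occludin, tricellulin and the product of *Marveld3* share the MARVEL domain. Tricellulin sits at the corners where several cells meet and is brought there by the angulins, and the zonula occludens scaffold encoded by *Tjp1* links the strands to actin. Mice that lack *Cldn14*, *Cldn9*, *Ocln* or *Ildr1* function lose hearing, and in people recessive hearing loss is caused by variants of *CLDN14*, *MARVELD2* and *ILDR1*. Supporting cells also express these genes, and in pooled cells fewer cells of a type and less RNA per cell cannot be told apart.

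Several properties of the libraries stand before the results. Mapped reads, recovered from the step size of the RPKM values, came to 19666190 to 31243721 per library. Libraries 1 and 2, and libraries 3 and 4, of a group differed by about the sampling noise (chi-square averaged over genes of 0.993 to 1.095 in these 8 pairs, against 2.67 to 3.39 in the 16 other pairs), so each such pair was averaged to 1 replicate, and means are given with the SD over n = 2. The p-values measure only the spread between these replicates, which may be technical. The markers went against a label: 6 OHC genes had a summed level of 14650 to 14860 RPKM in libraries labelled 26m IHC, but of 101 to 104.7 RPKM under the label 9m OHC and 1189 to 1202 RPKM under 26m OHC, with *Slc26a5* (prestin) at 816 RPKM in the first. The IHC gene *Otof*, which encodes otoferlin of the IHC synapse, was at 350, 23.5, 138 and 76.8 RPKM in group order, which below always means 9m IHC, 26m IHC, 9m OHC, 26m OHC. Groups are therefore named by their labels, and no direction below is a statement on the cell type itself. The libraries labelled 26m IHC enter the comparisons 26m IHC against 9m IHC, 26m OHC against 26m IHC and the interaction, whereas 26m OHC against 9m OHC and 9m OHC against 9m IHC hold none of them. If the labels 26m IHC and 9m OHC were exchanged, which is a reading taken up only after the levels were seen, the age comparisons would be 9m OHC against 9m IHC and 26m OHC against 26m IHC.

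The claudin genes *Cldn6* and *Cldn9* are neighbours on chromosome 17 of GRCm38, *Cldn6* at chr17:23679365-23682446 on the forward strand and *Cldn9* at chr17:23682584-23684018 on the reverse strand, with 137 bases between their 3′ ends. Their coding sequences matched at 76.0% of aligned bases (490 of 645), against 59.5% for *Cldn6* and *Cldn14* and 61.0% for *Cldn9* and *Cldn14*. The 60 coding bases in which *Cldn6* and *Cldn9* were most alike, coding bases 134 to 193, are shown because their levels differed so widely that reads placed on the wrong neighbour would matter. The sequences are from GENCODE M21, and capitals mark the 2 bases that differ.
Cldn6: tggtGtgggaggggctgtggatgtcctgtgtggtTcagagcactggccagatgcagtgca
Cldn9: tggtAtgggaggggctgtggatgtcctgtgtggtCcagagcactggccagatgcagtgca
This stretch lies in the part that encodes the first extracellular loop of a claudin, which holds the family's signature motif. The longest run of identical bases was 37, and none of the 62 windows of 75 bases along *Cldn6* or the 55 along *Cldn9* occurred in another annotated transcript. The same held for all other members but *Lsr*, in which 23 of 84 windows (27.4%) also lay in the antisense transcript *Gm4673*. The windows count exact matches only, and with a longest run of 37 none could match between the coding sequences of *Cldn6* and *Cldn9*. Placement of reads with mismatches was not tested. *Gm4673* reached at most 1.10 RPKM in any library, and *Gm17077*, another antisense gene that overlaps *Lsr*, at most 0.280 RPKM. The strand setting of the counting is not given in the sources used here. *Lsr* levels are therefore uncertain, and these values do not limit by how much.

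*Ocln* and *Marveld2* are also neighbours, 43238 bases apart on the reverse strand of chromosome 13, at chr13:100496507-100552718 and chr13:100595957-100616971. Their levels moved in opposite directions between libraries labelled 26m OHC and 9m OHC, whereas no labelled age difference of *Ildr1* (chr16:36693978-36726804, forward strand) was called. The 150 bases before the start of each are shown for these 3 genes, from RefSeq on GRCm38.p6, with capitals marking GGGCGG on either strand, letters bound by SP family factors.
Ocln: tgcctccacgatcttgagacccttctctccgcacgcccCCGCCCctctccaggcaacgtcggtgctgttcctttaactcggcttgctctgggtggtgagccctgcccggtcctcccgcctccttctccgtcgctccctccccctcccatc
Marveld2: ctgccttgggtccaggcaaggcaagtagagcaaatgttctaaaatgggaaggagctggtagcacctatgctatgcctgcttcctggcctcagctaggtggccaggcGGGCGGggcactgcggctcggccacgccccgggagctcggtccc
Ildr1: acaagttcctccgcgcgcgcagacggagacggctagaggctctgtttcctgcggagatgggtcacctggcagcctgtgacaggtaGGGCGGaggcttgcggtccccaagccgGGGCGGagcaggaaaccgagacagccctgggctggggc
These runs are chr13:100552719-100552868 and chr13:100616972-100617121 on the reverse strand and chr16:36693828-36693977 on the forward strand. GGGCGG is found within 250 bases before the start in 32.97% of all 32536 promoter entries. The E-box letters CAGGTG, bound by SNAIL and ZEB factors, are in 17.3% of them, and among the 5 members with an entry at the gene start of the table they were found in 2, *Cldn6* and *Ildr1*. Entries away from that start held them too: *Lsr* (4 matches, 5 bases away), *Ocln* (2 matches, 220 bases away) and *Cldn14* (1 match, 79020 bases away). Such entries of *Marveld2* and *Tjp1* held none. AACNNGTT, the letters of grainyhead-like factors, are in 3.6% of the entries and were in no entry of a member. The 3 motifs were chosen after the sequences had been seen, do not overlap in these prints, and their matches are descriptions only. Promoter entries were used for 7 of the 9 members, without *Cldn9* and *Marveld3*. The other members lie at chr16:93919031-94008837 (*Cldn14*, reverse strand), chr8:109947914-109962203 (*Marveld3*, reverse), chr7:65296165-65527781 (*Tjp1*, reverse) and chr7:30957770-30973464 (*Lsr*, reverse).

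Levels of most tight junction genes were higher in both groups labelled IHC than in the group labelled OHC of the same age. By the labels, the called age differences went in both directions among the claudin genes and among the MARVEL domain genes. A gene was called where its mean was at least 0.1 RPKM in a group, its log2 difference of RPKM + 0.1 was 1 or more in size, and its adjusted p was 0.1 or less (limma, Benjamini-Hochberg over all genes tested). Between libraries labelled 26m IHC and 9m IHC, *Ocln* and *Cldn14* rose and *Lsr* and *Marveld3* fell, which is 2 of 9 members higher and 2 lower where 14.1% of 15711 genes were called higher and 18.6% lower. Between libraries labelled 26m OHC and 9m OHC, *Cldn6* and *Ocln* rose and *Marveld3*, *Marveld2* and *Cldn14* fell, so that 2 were higher and 3 lower against a background of 35.6% and 14.0% of 14843 genes. *Ocln* was thus called higher and *Marveld3* lower in libraries labelled 26 months of both cell types.

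The level under the label 9m OHC was lower than under 9m IHC for 7 members and higher for 0, where 48.5% of 15335 genes were called lower and 17.3% higher. *Cldn14* and *Marveld3* were the members that were not called. Under the label 26m OHC it was lower than under 26m IHC for 8 members, with *Cldn6* higher, where 34.4% of 16043 genes were called lower and 29.0% higher. The members' median log2 difference was -2.16 and -2.43 in these comparisons, beside -0.93 and -0.20 over all genes. In the age comparisons it was -0.04 in libraries labelled IHC and -0.51 in those labelled OHC, beside -0.09 and 0.45 over all genes. The genes of the hair cell list, which HCs of both types express, also had negative medians in the comparisons of labelled OHC with labelled IHC libraries, -1.22 at 9 months and -1.78 at 26 months. Their summed level was also lower under the label 9m OHC (2349 to 2396 RPKM) than under 9m IHC (3979 to 4007 RPKM). At 26 months the sum went the other way, 2563 to 2614 RPKM in 26m OHC against 1211 to 1232 RPKM in 26m IHC. There, 2 of the 8 genes (*Calb2* and *Pvalb*) were called higher and 6 lower. *Calb2* made up most of each sum except under the label 26m IHC, at 3150, 252.2, 1609 and 2014 RPKM in group order. The higher sum in 26m OHC thus went against the direction of 6 of the 8 genes. The part that the share of HCs in a pool has in the members' lower levels was not tested.

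**Figure D1:**
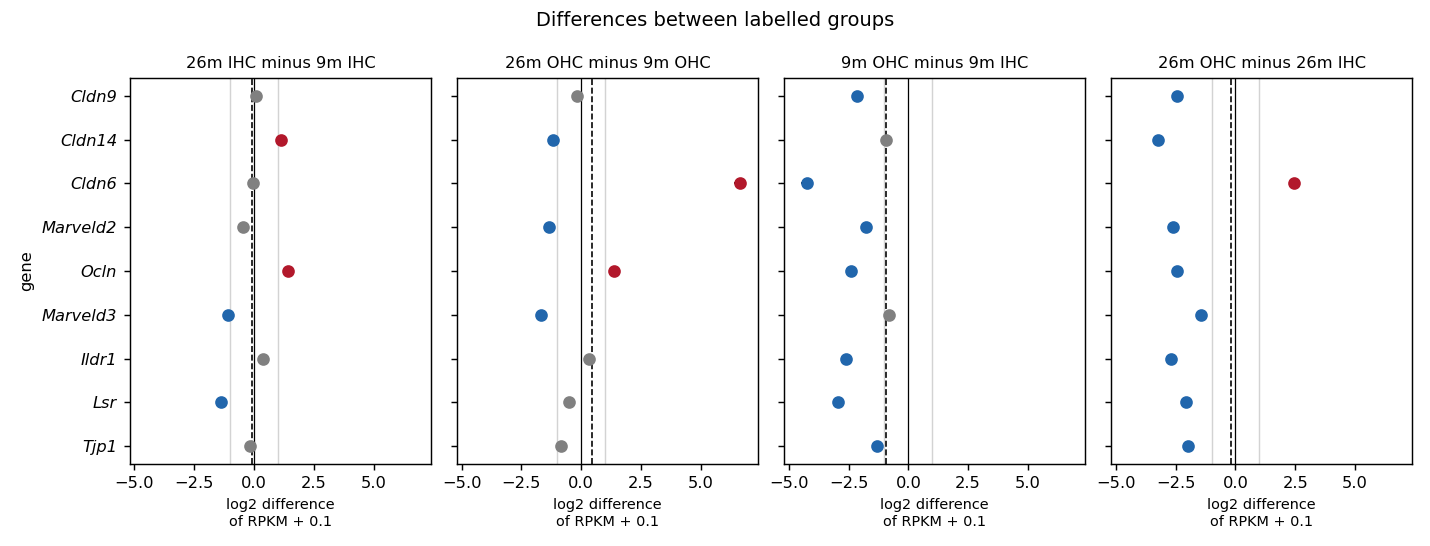
Log2 difference of RPKM + 0.1 for the 9 members in 4 comparisons of labelled groups, with red points called higher, blue points called lower and grey points not called. Bars are 95% confidence intervals, mostly narrower than the points, grey lines mark -1 and 1, and the dashed line is the median over all genes tested; 7 and 8 blue points stand in the comparisons of libraries labelled OHC with those labelled IHC.

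Scaling to equal total reads shifts all genes together. Median ratio scaling moved the median of all genes from -0.93 to -0.20 between libraries labelled 9m OHC and 9m IHC, from 0.45 to 0.06 between 26m OHC and 9m OHC, and from -0.09 to 0.11 between 26m IHC and 9m IHC. Under it, 6 of the 9 members remained lower under the label 9m OHC than under 9m IHC, and *Tjp1*, at -0.60, was no longer called. *Tjp1* was also not called there under quantile normalization (-0.47). The log2 differences of that comparison became -1.44 for *Cldn9*, -1.03 for *Marveld2*, -1.68 for *Ocln*, -1.90 for *Ildr1* and -2.21 for *Lsr* under median ratio scaling, so that the folds given below are smaller by it, and quantile normalization put *Cldn9* at -2.84. *Marveld3* was no longer called between libraries labelled 26m IHC and 9m IHC (-0.87). Between those labelled 26m OHC and 9m OHC, *Ocln* was no longer called under median ratio scaling (0.98) or quantile normalization (0.95), and the members called were 1 higher and 4 lower under the first and 1 higher and 5 lower under the second. The 9 calls between libraries labelled 26m OHC and 26m IHC kept their directions under both scalings.

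Among the claudins, *Cldn9*, whose product is a barrier to sodium and potassium around HCs, had by far the highest level. Its RPKM was 1625, 1621, 1562 and 1555 in libraries labelled 9m IHC, 1742, 1734, 1677 and 1670 in 26m IHC, 362, 359, 349 and 349 in 9m OHC, and 323, 328, 308 and 305 in 26m OHC. No library of a group labelled OHC came near one labelled IHC, and within a labelled cell type the ages lay close together without overlap. *Cldn9* ranked 20 and 21 by RPKM among the genes above 0 in libraries labelled 9m IHC and 26m IHC, and 129 and 118 in those labelled 9m OHC and 26m OHC. Between libraries labelled 9m OHC and 9m IHC, *Cldn9* was 4.48-fold lower (log2 difference -2.16, SE 0.03, adjusted p = 6.58e-07, limma), and between those labelled 26m OHC and 26m IHC it was 5.40-fold lower (-2.43, SE 0.04, adjusted p = 7.43e-07, limma). By the labels, its age differences were small. They were 0.10 (95% confidence interval 0.01 to 0.19) in libraries labelled IHC and -0.17 (-0.27 to -0.07) in those labelled OHC. Both signs turned with quantile normalization (-0.07 and 0.08). With the labels exchanged, the age differences of *Cldn9* would be the -2.16 and -2.43 above, both called.

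*Cldn14*, which encodes a cation barrier claudin, went up with age in IHC libraries and down in OHC libraries as labelled. Its RPKM was 35.3, 35.5, 37.0 and 36.5 in libraries labelled 9m IHC, 78.1, 78.7, 79.4 and 79.9 in 26m IHC, 19.3, 18.7, 18.2 and 18.3 in 9m OHC, and 8.03, 8.77, 8.24 and 8.02 in 26m OHC. The 4 groups did not overlap, and the libraries labelled 26m IHC, in which the OHC genes were highest, also had the most *Cldn14*. The rise between libraries labelled 26m IHC and 9m IHC was 2.19-fold (log2 difference 1.13, SE 0.03, adjusted p = 2.03e-06, limma). The fall between libraries labelled 26m OHC and 9m OHC was 2.25-fold (-1.16, SE 0.04, adjusted p = 1.06e-05, limma), and the largest *Cldn14* difference was the 9.56-fold lower level in libraries labelled 26m OHC than in 26m IHC (-3.24, SE 0.03). Between libraries labelled 9m OHC and 9m IHC it was -0.95 (95% confidence interval -1.04 to -0.86), just short of the fold threshold and close to the -0.93 of all genes. With the labels exchanged, the age differences of *Cldn14* would be these -0.95 and -3.24, both negative.

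*Cldn6*, a claudin gene mainly of embryonic epithelia, was near 0 in 1 group and high in another. Its RPKM was 1.85, 2.08, 2.004 and 1.74 in libraries labelled 9m IHC, 1.55, 2.07, 2.01 and 1.86 in 26m IHC, 0.0318, 0, 0 and 0 in 9m OHC, and 11.1, 10.95, 10.4 and 10.01 in 26m OHC. The groups labelled IHC overlapped, and all libraries labelled 26m OHC exceeded all others. A total of 1 read was found over the 4 libraries labelled 9m OHC, against 1314 in 26m OHC, 347 in 9m IHC and 274 in 26m IHC. Per mapped read, the level in libraries labelled 26m OHC was 1304 times that in 9m OHC (exact 95% interval 233.7 to 51550, counting error only). The fitted log2 difference of 6.64 (adjusted p = 2.39e-06, limma) depends on the pseudocount and ran from 3.53 at 1 RPKM to 9.37 at 0.01 RPKM. Compared with libraries labelled 26m IHC, those labelled 26m OHC had 5.67-fold more *Cldn6* (log2 difference 2.44, SE 0.06, adjusted p = 2.19e-06, limma). Libraries labelled 26m OHC also held the highest summed RPKM of the 6 macrophage genes (935.9 to 961.6, against 0.158 to 49.8 in the other groups, with 0 of the 6 at 0) and of the 6 neuronal genes (861.1 to 880.4, against 30.2 to 199.8 elsewhere). The sum of the 10 stria vascularis and fibrocyte genes was highest there as well (654.4 to 662.3, against 48.8 to 165.2). Most of it was *Coch*, *Otos* and *Otor* (means of 308.7, 258.1 and 71.8 RPKM). *Kcne1* was at 0 in these libraries, and *Kcnq1*, *Col1a1*, *Col1a2* and *Col3a1* were each higher in another group. The part of these markers in the *Cldn6* level was not tested.

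Within the sum of 23 claudin genes, *Cldn9* made up 89.3% in libraries labelled 9m IHC, 90.4% in 26m IHC, 81.1% in 9m OHC and 79.3% in 26m OHC (means of 4 libraries, shares of summed RPKM). *Cldn14* made up 2.03%, 4.19%, 4.25% and 2.08% in the same order. *Cldn6* made up 0.108%, 0.0992%, 0.00178% and 2.66%. The remaining claudins with levels above 10 RPKM in a group were *Cldn3*, *Cldn7*, *Cldn8*, *Cldn12* and *Cldn23*. Of the 20 other claudins listed, 11 had a mean of at least 0.1 RPKM in a group and 8 were at 0 in all libraries. *Cldn23* and *Cldn7* had the highest means of these, 38.7, 37.2, 15.5 and 15.5 RPKM for *Cldn23* and 37.4, 34.2, 12.2 and 11.4 RPKM for *Cldn7* (group order). Both were called lower in labelled OHC than in labelled IHC libraries at both ages. *Cldn11*, the claudin of myelin and of the basal cells of the stria vascularis, went the other way, at 0.161, 0.241, 3.20 and 7.63 RPKM. *Cldn10*, a claudin of ion-transporting epithelia, was at 1.57 RPKM in libraries labelled 9m OHC and at 0 in all 4 labelled 26m OHC.

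**Figure D2:**
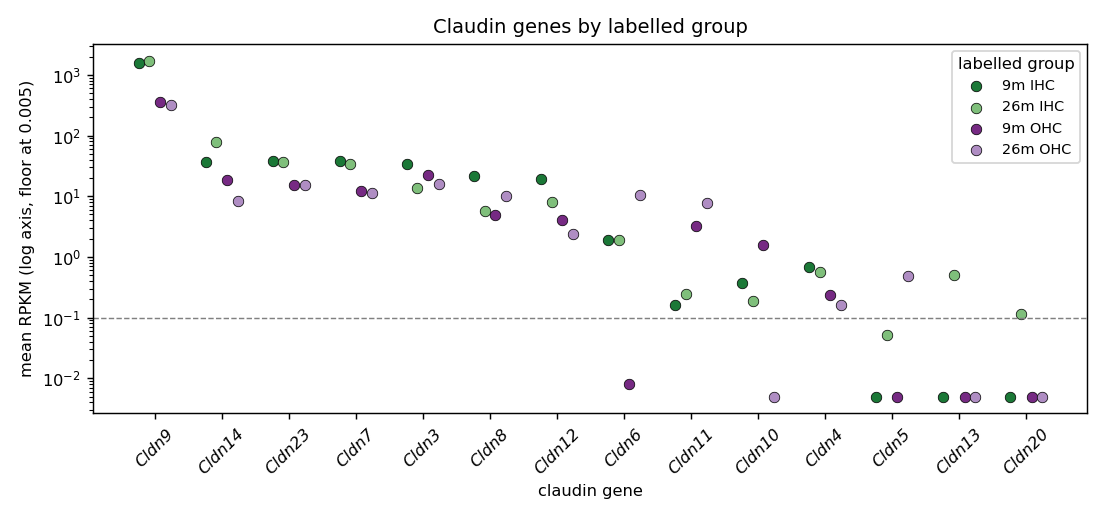
Mean RPKM (log axis) of each claudin gene that reached 0.1 RPKM in a group, by labelled group, with means of 0 drawn at 0.005 and the dashed line at the background of 0.1 RPKM. *Cldn9* stands above all others in every group, between 315.7 and 1706 RPKM, and *Cldn6* is under the background only where the label is 9m OHC.

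The MARVEL domain genes did not move together. *Marveld2*, which encodes tricellulin, had levels of 41.2, 41.1, 40.4 and 41.2 RPKM in libraries labelled 9m IHC, 29.9, 29.4, 29.9 and 28.4 in 26m IHC, 12.2, 11.8, 12.1 and 12.1 in 9m OHC, and 4.56, 5.03, 4.66 and 4.72 in 26m OHC. The groups did not overlap, and at both labelled ages the level in libraries labelled IHC was the higher one. The fall of *Marveld2* between libraries labelled 26m OHC and 9m OHC was 2.55-fold (log2 difference -1.33, SE 0.03, adjusted p = 5.30e-06, limma), and the difference between 26m IHC and 9m IHC, -0.48 (95% confidence interval -0.54 to -0.42), was under the fold threshold. *Marveld2* was 3.39-fold lower under the label 9m OHC than under 9m IHC and 6.20-fold lower in 26m OHC than in 26m IHC.

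*Ocln*, which encodes occludin, the strand protein found at bicellular contacts, was higher at 26 months by either label. Its RPKM was 21.7, 21.5, 22.04 and 21.9 in libraries labelled 9m IHC, 57.4, 59.1, 58.9 and 59.4 in 26m IHC, 3.89, 4.13, 4.06 and 4.07 in 9m OHC, and 10.6, 10.8, 9.47 and 11.6 in 26m OHC. Every library labelled 26 months exceeded every library labelled 9 months of the same cell type. The rises were 2.70-fold in libraries labelled IHC (log2 difference 1.43, SE 0.02, adjusted p = 6.59e-07, limma) and 2.63-fold in those labelled OHC (1.37, SE 0.03, adjusted p = 5.28e-06, limma). With the labels exchanged as above, *Ocln* was instead lower at 26 months in both, by 2.40 (9m OHC against 9m IHC) and 2.46 (26m OHC against 26m IHC) on the log2 scale.

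*Marveld3*, whose product is a strand protein that also acts on stress kinase signalling, was the member with the lowest level in libraries labelled 26m OHC after *Tjp1*. Its RPKM was 17.7, 17.7, 17.0 and 18.0 in libraries labelled 9m IHC, 8.31, 7.85, 8.65 and 8.503 in 26m IHC, 10.01, 10.01, 9.62 and 9.97 in 9m OHC, and 3.06, 2.96, 2.94 and 3.13 in 26m OHC. The 26m IHC and 9m OHC groups lay next to each other without overlap, and the other 2 groups lay well above and below them. *Marveld3* fell 2.11-fold between libraries labelled 26m IHC and 9m IHC (log2 difference -1.07, SE 0.04, adjusted p = 6.67e-06, limma) and 3.28-fold between those labelled 26m OHC and 9m OHC (-1.68, SE 0.03, adjusted p = 3.93e-06, limma). The first of these calls was lost at a pseudocount of 1 RPKM (-0.997) and with median ratio scaling. Between libraries labelled 9m OHC and 9m IHC its difference was -0.82 (95% confidence interval -0.90 to -0.75), less negative than the -0.93 of all genes.

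Ratios between members within a library do not depend on the scaling of that library. *Ocln* over *Marveld2* was 0.522 to 0.546 under the label 9m IHC and 0.318 to 0.350 in 9m OHC, but 1.92 to 2.09 in 26m IHC and 2.03 to 2.46 in 26m OHC. Occludin RNA was thus below tricellulin RNA per length in the 9m IHC and 9m OHC libraries and above it in the 26m IHC and 26m OHC libraries. With the labels exchanged as above, each age would hold 1 group below and 1 group above, and the split would follow the cell type in place of the age. *Marveld2* over *Marveld3* was 2.29 to 2.37, 3.34 to 3.75, 1.18 to 1.26 and 1.49 to 1.70 in group order.

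**Figure D3:**
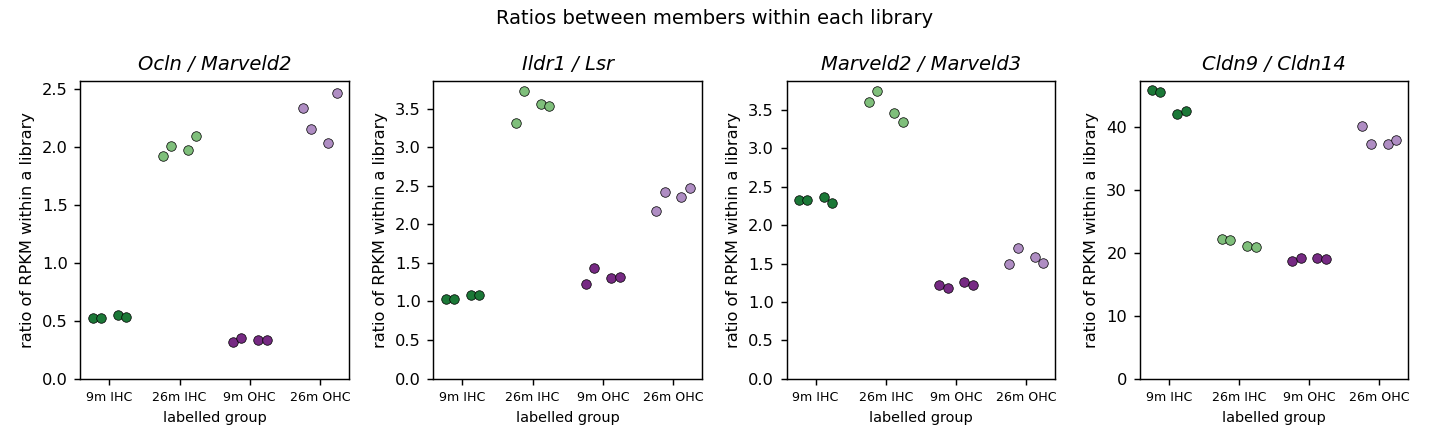
Ratio of the RPKM of 2 members within each of the 16 libraries, by labelled group, for 4 pairs of genes. *Ocln* over *Marveld2* stays between 0.318 and 0.546 in libraries labelled 9 months and between 1.92 and 2.46 in those labelled 26 months, a split that would follow the cell type and not the age if the labels 26m IHC and 9m OHC were exchanged.

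The angulin genes differed in their labelled age differences and were alike in the direction of their labelled cell type difference. *Ildr1* had levels of 39.2, 39.1, 39.1 and 38.5 RPKM in libraries labelled 9m IHC, 50.6, 50.5, 50.1 and 49.4 in 26m IHC, 6.04, 6.43, 6.50 and 6.05 in 9m OHC, and 7.64, 7.85, 8.08 and 7.48 in 26m OHC. Levels in libraries labelled IHC were all above 38, and those in libraries labelled OHC all under 9. *Ildr1* was 6.23-fold lower under the label 9m OHC than under 9m IHC (log2 difference -2.62, SE 0.03, adjusted p = 5.18e-07, limma) and 6.46-fold lower in 26m OHC than in 26m IHC (-2.68, SE 0.03, adjusted p = 3.34e-07, limma). By the labels, its age differences were 0.36 (95% confidence interval 0.30 to 0.42) in IHC libraries and 0.31 (0.23 to 0.39) in OHC libraries, neither of them called. The second turned to -0.09 under median ratio scaling and to -0.12 under quantile normalization. With the labels exchanged, the age differences of *Ildr1* would be the -2.62 and -2.68 above, both called.

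*Lsr*, the other angulin gene of the list, which also encodes a lipoprotein receptor of the liver, had levels of 37.8, 37.9, 36.2 and 35.7 RPKM in libraries labelled 9m IHC, 15.3, 13.6, 14.1 and 14.0 in 26m IHC, 4.94, 4.49, 4.99 and 4.57 in 9m OHC, and 3.53, 3.25, 3.43 and 3.03 in 26m OHC. The order of the 4 groups was clear, with no overlap, and the libraries labelled 9m IHC stood well above the rest. *Lsr* fell 2.60-fold between libraries labelled 26m IHC and 9m IHC (log2 difference -1.37, SE 0.04, adjusted p = 2.31e-06, limma), and its difference between 26m OHC and 9m OHC, -0.51 (95% confidence interval -0.62 to -0.39), was not called but reached -1.05 with quantile normalization. *Lsr* was 7.78-fold lower under the label 9m OHC than under 9m IHC and 4.30-fold lower in 26m OHC than in 26m IHC. *Ildr1* over *Lsr* was 1.03 to 1.08 under the label 9m IHC and 1.22 to 1.43 in 9m OHC, but 3.31 to 3.72 in 26m IHC and 2.17 to 2.47 in 26m OHC.

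*Tjp1*, the scaffold gene, had levels of 12.02, 12.3, 11.5 and 11.97 RPKM in libraries labelled 9m IHC, 10.7, 10.5, 10.6 and 10.9 in 26m IHC, 4.55, 4.60, 4.83 and 4.97 in 9m OHC, and 2.66, 2.60, 2.54 and 2.56 in 26m OHC. It had the lowest level of the 9 members in libraries labelled 26m OHC. By the labels, no age difference was called: -0.16 (95% confidence interval -0.24 to -0.07) between 26m IHC and 9m IHC, and -0.85 (-0.98 to -0.71) between 26m OHC and 9m OHC. The first turned to 0.04 with median ratio scaling, and the second passed the fold threshold with it (-1.24). *Tjp1* was 2.52-fold lower under the label 9m OHC than under 9m IHC and 4.13-fold lower in 26m OHC than in 26m IHC (log2 difference -2.004, SE 0.04, adjusted p = 1.09e-06, limma). With the labels exchanged, these would be its age differences (-1.32 and -2.004), both called. The first was not called under median ratio scaling (-0.60) or quantile normalization (-0.47).

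**Figure D4:**
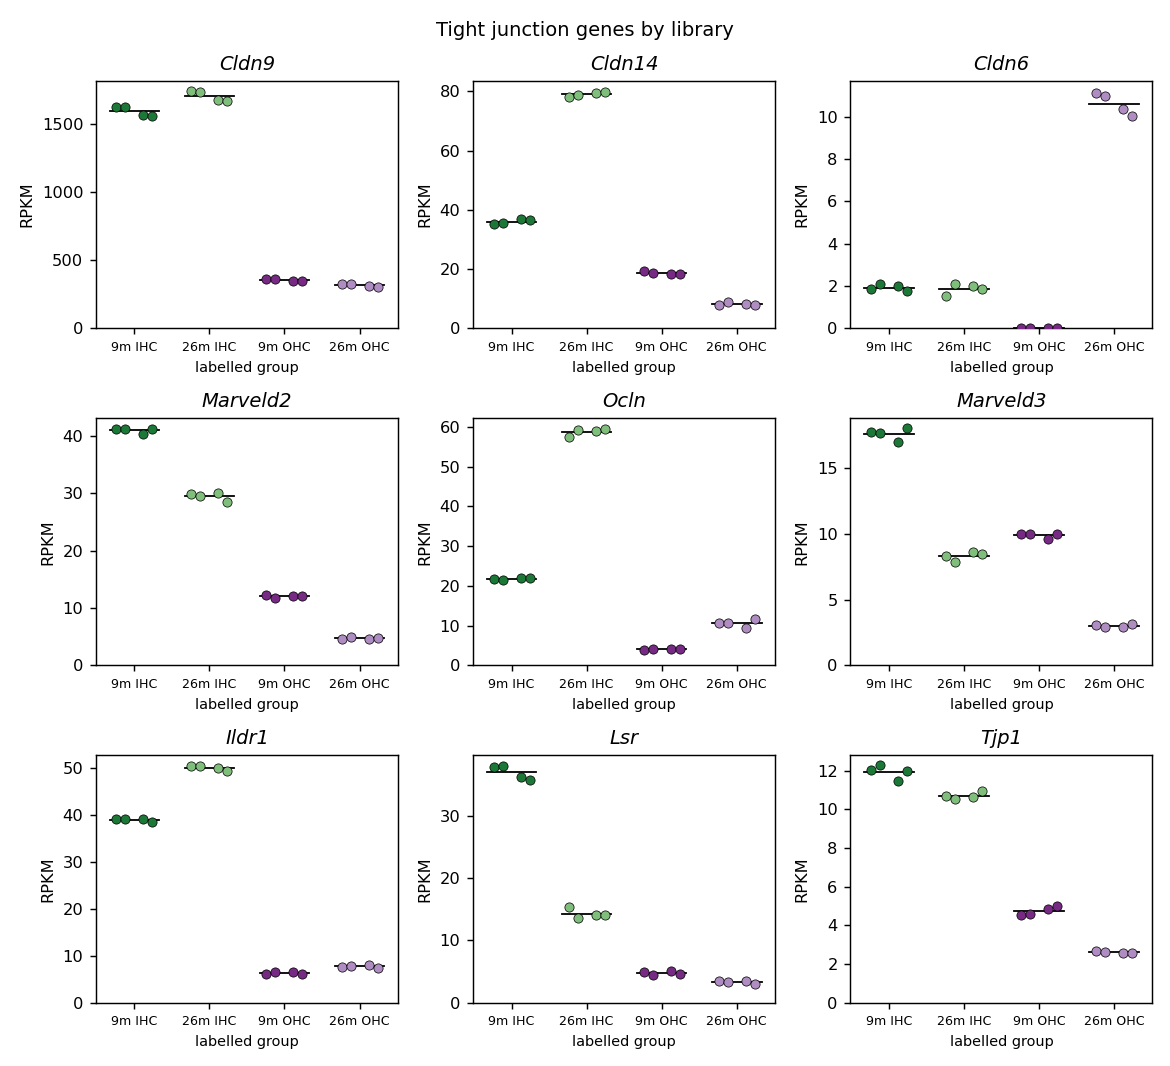
RPKM of the 9 members in each of the 4 libraries of a labelled group (points, libraries 1 to 4 from left to right) with the group mean as a black line, each axis starting at 0. Libraries of a group lie close together, *Cldn6* reaches 10.01 to 11.1 RPKM in libraries labelled 26m OHC, and *Ocln* and *Cldn14* are highest in those labelled 26m IHC.

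Whether an age difference itself depended on the labelled cell type was tested as the difference in libraries labelled OHC minus that in libraries labelled IHC. It was called for 2 of 9 members, where 56.5% of 17056 genes were called in either direction: *Cldn6* (6.67, SE 0.12, adjusted p = 1.60e-08, limma, a value that depends on the pseudocount) and *Cldn14* (-2.29, SE 0.05, adjusted p = 2.01e-08, limma). *Ocln* and *Ildr1* had the values nearest to 0, -0.05 (95% confidence interval -0.14 to 0.03) and -0.05 (-0.13 to 0.02). *Marveld2*, at -0.85, *Tjp1*, at -0.69, and *Marveld3*, at -0.61, were under the fold threshold and passed it under either of median ratio scaling and quantile normalization, so that 5 members were then called. The interaction rests in all cases on the libraries labelled 26m IHC.

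The genes whose profile over the 8 averaged replicates was most like that of a member were found by the root mean square (RMS) difference of centred log2 values among 13308 genes. For *Cldn14* they were *Acer2*, a ceramidase gene (RMS 0.06), *Grxcr2*, a gene of the stereocilia base (0.10), and *Tuba8*, an alpha tubulin gene (0.11). *Grxcr2* was at 132, 313, 71.7 and 27.7 RPKM in group order. For *Ocln* they were *Hs3st1*, *Ankrd24* and *Pigo* (0.09 to 0.11), for *Cldn9* *Akr7a5*, *Psmd3* and the chaperone gene *Hspa5* (0.07 to 0.08), for *Ildr1* *Tmbim1*, *Ppip5k1* and *Usp33* (0.06 to 0.07), and for *Tjp1* *Retsat*, *Tssc4* and *Ubac2* (0.05 to 0.06). *Marveld2* was followed by *Mboat2*, *Prps1l3* and *Lin54* (0.09 to 0.11), *Marveld3* by *Rgs11*, *9830144P21Rik* and *Rnf168* (0.10 to 0.11), *Lsr* by *Pdk3*, *Slitrk6* and *Camk1* (0.14 to 0.18), and *Cldn6* by *Tspyl5*, *Galnt9* and *Hspb8* (0.22 to 0.33). Among the members themselves *Cldn9* and *Ildr1* were most alike (0.26), and *Cldn6* differed from each of the others by at least 2.08.

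Of 79 other junction genes, 5 of 65 tested rose and 22 fell between libraries labelled 26m IHC and 9m IHC, where 14.1% of all genes rose and 18.6% fell. Between 26m OHC and 9m OHC, 18 of 64 rose and 8 fell, beside 35.6% and 14.0% of all genes. Between libraries labelled 9m OHC and 9m IHC, 8 of 63 were higher and 36 lower (17.3% and 48.5% of all genes), and between 26m OHC and 26m IHC 20 of 66 were higher and 22 lower (29.0% and 34.4%). Their median log2 difference in the last comparison was 0.10, beside -2.43 for the 9 members and -0.20 for all genes. There, 2 of 12 scaffold genes were higher and 6 lower, with a median of -1.28, and 2 of 11 other claudins were higher and 6 lower, with a median of -1.26. In the junctional actomyosin list 7 of 13 were higher and 1 lower, with a median of 1.16.

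Among the scaffolds, *Cgn*, which encodes cingulin of the cytoplasmic plaque, was at 48.7, 66.4, 433.9 and 200.7 RPKM in group order. It was thus called higher in both groups labelled OHC, where *Tjp1* was lower, and fell between 26m OHC and 9m OHC (log2 difference -1.11, SE 0.02, adjusted p = 2.54e-06, limma). *Tjap1*, a tight junction associated protein gene, was at 133.9, 42.0, 26.8 and 13.3 RPKM and fell with labelled age in both cell types (-1.67 and -1.01). *Tjp3*, a relative of *Tjp1*, was at 19.4, 19.9, 6.25 and 1.24 RPKM and fell between 26m OHC and 9m OHC (-2.25).

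Of the other angulin gene and the immunoglobulin-like adhesion genes of the JAM family, 4 of 6 tested rose and 0 fell between libraries labelled 26m OHC and 9m OHC, where 35.6% of all genes rose, among them *Cxadr* (7.79 and 20.9 RPKM in libraries labelled 9m OHC and 26m OHC) and *Jam2* (0 and 1.35). *F11r*, which encodes a junctional adhesion molecule of epithelia, was at 48.3, 24.2, 16.9 and 26.9 RPKM. *Esam*, an adhesion gene of endothelium and platelets, was at 3.17 RPKM in libraries labelled 9m IHC, at 0.0110 in 26m IHC and at 0 in all labelled OHC.

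Of the polarity genes, *Pard6b*, a subunit of the PAR complex, was at 16.1, 15.4, 1.26 and 2.96 RPKM. *Lin7c*, of the Crumbs-linked scaffold, was at 58.2, 50.8, 14.6 and 13.7, and *Crb3*, the epithelial Crumbs gene, at 22.6, 18.6, 15.2 and 15.1, with no call in any comparison. *Lin7a* was at 0.793, 0.0714, 2.51 and 3.81 RPKM and was called higher in libraries labelled OHC at both ages. Adherens junction genes held *Jup* (plakoglobin) at 81.0, 71.4, 29.5 and 35.5 RPKM and *Ctnna1* (alpha-catenin) at 64.6, 24.4, 32.5 and 36.3. *Cdh2*, which encodes N-cadherin, was at 5.91, 0.191, 1.77 and 2.93 RPKM and *Ctnna2*, the neuronal alpha-catenin gene, at 0.837, 1.47, 0.0143 and 1.83. Of the actin genes *Actg1* was at 360.7, 313.6, 340.6 and 500.5 RPKM, while *Actb* was at 31.5, 15.3, 1369 and 2398 and *Myh9*, the nonmuscle myosin heavy chain gene, at 0.386, 0.687, 7.57 and 12.7. The levels of *Actb* and *Myh9* were thus higher in libraries labelled OHC, against the direction of 8 of the 9 members at 26 months.

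**Figure D5:**
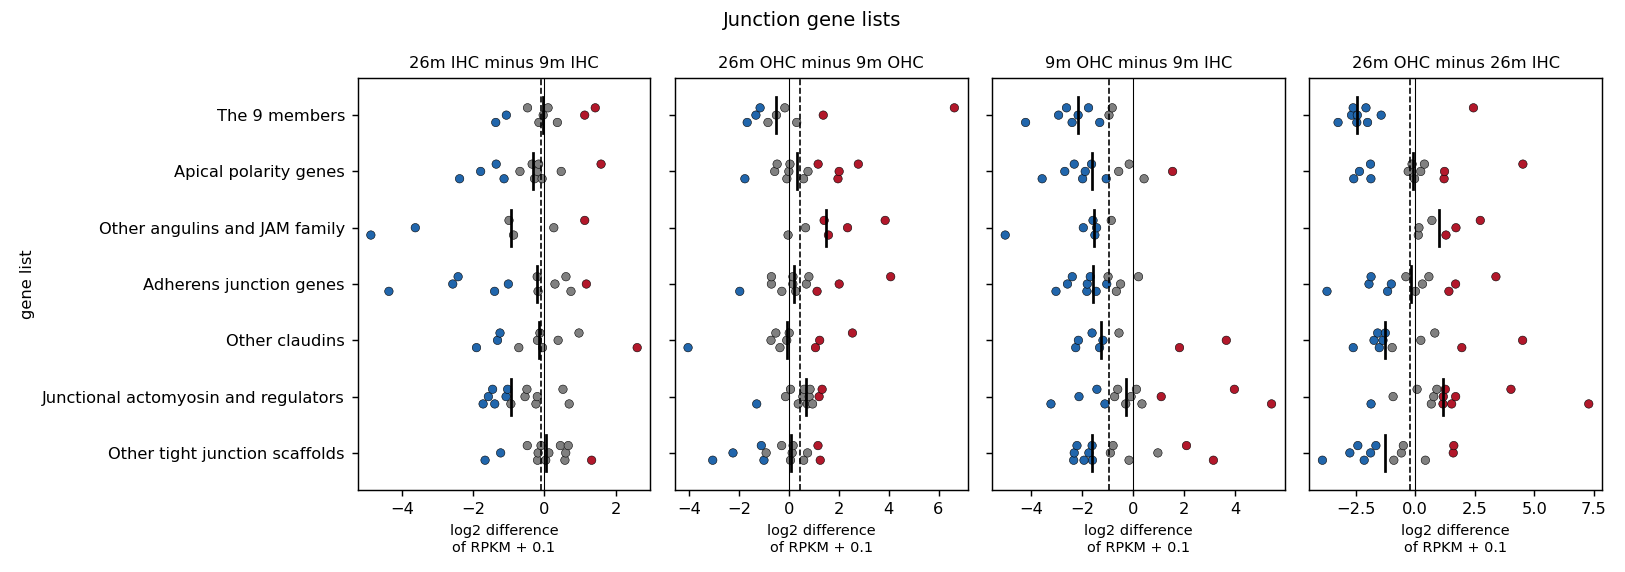
Log2 difference of RPKM + 0.1 of each tested gene in 6 lists of junction genes and of the 9 members, in 4 comparisons of labelled groups; red genes were called higher, blue genes lower, grey genes neither, black bars are list medians and the dashed line is the median over all genes. The members have a median of -2.43 between libraries labelled 26m OHC and 26m IHC, where the actomyosin list has 1.16.

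Markers of other cells stand beside these levels. The 4 epithelial genes, led by *Epcam*, summed to 197.2 to 202.9, 247.4 to 254.8, 154.7 to 157.7 and 205.8 to 207.7 RPKM in group order, and none was at 0. The 10 supporting cell genes summed to 5807 to 5871, 4174 to 4213, 11460 to 11710 and 6092 to 6234 RPKM, most of it *S100a1*, with *Prox1* and *Hes5* at 0 in libraries labelled 9m OHC. The other supporting cell genes did not share one order: *Gjb2* was highest in libraries labelled 9m IHC (564 RPKM), *Fgfr3* in 26m IHC (41.6 RPKM) and *Cd44* in 26m OHC (12.7 RPKM). Genes of the mitochondrial genome took 1.16% to 1.22%, 1.94% to 2.05%, 9.27% to 9.56% and 7.48% to 7.73% of reads in the same order, and leaving them out of the total changed no count of members called. The 4 IHC genes summed to 530.0 to 548.7 RPKM in libraries labelled 9m IHC and to 26.1 to 27.1 RPKM in 26m IHC. The 3 eosinophil genes were high in 26m IHC alone (371.3 to 389.2 RPKM, at most 0.119 elsewhere), where the 6 red blood cell genes were also highest (5920 to 6149 RPKM). The 6 endothelial genes were highest in 26m OHC (25.9 to 26.4 RPKM, nearly all *Emcn*, with *Pecam1* and *Cdh5* at 0), and the 4 Schwann cell genes stayed between 3.29 and 8.15 RPKM in all groups. The part of these cells and of supporting cells in the members' levels was not tested.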

How the data were processed

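Total RNA of about 1000 cells per sample was amplified with a SMARTer low-input kit, made into Nextera libraries and sequenced as paired reads. Using CLC Genomics Workbench, the authors placed reads on the mouse build mm10 (GRCm38) and deposited RPKM values per gene and library; the version and the counting of strand are not given in the sources used here. Normalizing to total reads means that abundant transcripts in one group lower all other values of it. Groups came from the labels. Libraries 1 and 2, and 3 and 4, were averaged (n = 2). Genes that reached a mean of 0.1 RPKM in at least 1 of the groups compared were tested with limma 3.58.1 (R 4.3.3, trended eBayes) on log2(RPKM + 0.1), with Benjamini-Hochberg adjustment over all genes tested, in place of the study's analysis of variance. Thresholds were an adjusted p of 0.1 and a log2 difference of 1. SE and confidence intervals come from this fit.

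Reads per gene were recovered from the RPKM steps: 74.8% of detected genes came out whole within 0.001 read, and all 9 members within 0.02 read. Counting intervals for *Cldn6* cover counting error only. The code was tested on simulated data first. Members, gene lists and tests were chosen with earlier results of these data known. Named genes were the 9 members, the 2 highest and the 2 most changed called genes of each junction list, the markers as lists with *Slc26a5* and *Otof* by name, and the 3 nearest profiles of each member. Other genes were singled out after their values were seen: *Cldn3*, *Cldn8*, *Cldn12*, *Calb2*, *Pvalb*, *Gjb2*, *Fgfr3*, *Cd44*, *S100a1*, *Epcam*, *Prox1*, *Hes5*, *Emcn*, *Pecam1*, *Cdh5*, *Kcne1*, *Kcnq1*, *Coch*, *Otos*, *Otor*, *Col1a1*, *Col1a2* and *Col3a1*. The authors' mean columns were not used. Alternatives were other pseudocounts, filters, scalings, replicate definitions, a replicate block, 1 fit over all groups and leaving out each replicate.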

Additional observations from a re-analysis of the deposited data

Results flagged for a closer look

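Of the 36 sets of 4 libraries (9 members in 4 labelled groups), 4 had 1 library far from the others by Dixon's ratio, the gap to the nearest library divided by the range, and chance alone marks about 1 in 20 such sets. For *Cldn6* in libraries labelled 9m OHC the ratio was 1.0, with 1 library at 0.0318 RPKM, which is 1 read, and the others at 0. Any set with only 1 library above 0 gives this ratio. For *Marveld3* in the same group it was 0.893, with the lowest library at 9.62 RPKM and the others at 9.97 to 10.01. In libraries labelled 9m IHC it was 0.878 for *Marveld2* (lowest 40.4 RPKM, others 41.1 to 41.2) and 0.874 for *Ildr1* (lowest 38.5 RPKM, others 39.1 to 39.2).

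The age difference was not the same in libraries labelled OHC and IHC for *Cldn14* and *Cldn6*, by the interaction test. The difference between them was -2.29 for *Cldn14* and 6.67 for *Cldn6* on the log2 scale (limma, adjusted p = 2.01e-08 and 1.60e-08). Both values rest on the libraries labelled 26m IHC, in which OHC genes were highest.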

How the results depend on the processing

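Of the results of single members under the alternatives, 633 kept their direction and side of the threshold, 9 passed it newly, 6 no longer passed it and 9 reversed. Between libraries labelled 26m IHC and 9m IHC, *Cldn6* turned from -0.04 to 0.15 with median ratio scaling, 0.19 with quantile normalization and, leaving out each replicate in turn, ran from -0.081 (without 26m IHC replicate 2) to 0.009 (without 26m IHC replicate 1), *Tjp1* to 0.041 with median ratio scaling, and *Cldn9* to -0.068 with quantile normalization. Between libraries labelled 26m OHC and 9m OHC, *Ildr1* turned to -0.087 under median ratio scaling and to -0.118 under quantile normalization, and *Cldn9* to 0.083 with quantile normalization, where the interaction of *Cldn9* also turned, to 0.187. None of these had been called. The interaction count went from 2 to 5 members (1 higher, 4 lower) under median ratio scaling, and likewise to 5 under quantile normalization; the cause was not tested. Averaged replicate 1 against 2 as a replicate block gave 4, 5, 7, 9 and 2 members called in the 4 comparisons and the interaction, as without the block. The study collected IHCs and OHCs from each mouse, so pools of the 2 cell types at the same age may share mice. The labels link such samples only by a number, with 2 replicates per group. The correlations of same-numbered deviations were 0.053 to 0.145. Leaving out each replicate in turn changed no count of members called. Among the members, depth limits *Cldn6* in libraries labelled 9m OHC, where 1 read was found.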
